A study of Arabidopsis thaliana with 9 samples.

Results

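Transcripts of Arabidopsis thaliana cells in suspension culture were compared between 1 h of darkness and continued growth light. The 3 dark arrays (1 h without light) and the 3 control arrays (50 microE/m2/s) make up 6 of the 9 arrays of the study. The other 3 hold cells given 1800 microE/m2/s for 30 min, called high light here, and their values are set beside some genes as a description. Dark and control arrays were taken as pairs by their replicate number, so that each gene has 3 differences, dark minus control. All groups come from the same kind of culture, shaken in liquid medium under continuous growth light, treated after day 9 of growth in a vessel held at constant temperature, and the labels name no ecotype, mutant or transgene. The replicates are labelled biological, but separate cultures are not stated, and p-values therefore reflect only how far these samples spread. RNA was hybridised to the Affymetrix ATH1 array, whose probes lie near the 3 prime ends of transcripts, and all values are log2 signals. A difference of 1 on this scale is a doubling or a halving.

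Light drives photosynthesis in chloroplasts and also sets the expression of many nuclear genes, among them those for antenna proteins, chlorophyll synthesis and the circadian clock. Darkness stops the supply of reducing power and sugar from the chloroplast and removes the signals from photoreceptors and from the plastid itself. Chloroplasts keep a small genome that encodes core subunits of the photosystems and of Rubisco, while the antennae and many other subunits are encoded in the nucleus. In a green cell culture the medium may supply sugar as well.

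After 1 h of darkness, several genes of the light reactions, of pigment synthesis and of the plastid genome had lower signals in every pair, and so did some genes known for rapid responses to stress. LHCB4.2, which binds chlorophyll in the antenna of photosystem II, stood at 0.474 of its control level and WRKY53, a transcription factor of defence and senescence, at 0.326. The genes with the largest differences in the same direction in every pair were named here mostly by their locus, as were 11933 of all 13513 annotated probe sets. No single gene passed the test across all probe sets, so the values below are differences with their errors and not calls.

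The array holds 22746 probe sets other than its control sets, and 13513 of them are annotated with exactly 1 gene, 13355 genes in all. Of the 13513, 1580 carry a gene symbol as their name and 11933 are named by a locus, some of these with a synonym. Lists and markers of nuclear genes were matched by symbol or synonym, so each holds only the part of its class that was matched. Measured, for such genes, means matched in this way. With limma, fitted on all 22746 probe sets with replicate number as the block, 0 (0%) had an adjusted p under 0.05. The smallest adjusted p was 0.194, and 0.266 among annotated probe sets. At an unadjusted p under 0.05, 584 probe sets (2.57%) were higher and 872 (3.83%) lower in the dark. Among the annotated ones 330 (2.44%) were higher and 460 (3.4%) lower. The fit with an intensity trend and a robust prior called 3 probe sets, all lower and all unnamed here.

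The arrays had nearly the same distribution of values, with medians between 5.60 and 5.64 in the dark and between 5.61 and 5.67 in control. The 3 prime minus 5 prime difference of the array's Arabidopsis actin, GAPDH and ubiquitin control sets, a sign of RNA quality, was 1.44, 1.69 and 2.01 in dark replicates 1, 2 and 3. It was 1.32, 1.64 and 1.78 in the control replicates, so each dark array was above its control array, by 0.11, 0.04 and 0.23. The part of this index in the results was not tested. All 4 measured markers of green tissue (RCA, LHCB4.1, LHCB4.2 and LHCB4.3) were above the lower quartile of every array. EXPA7, the 1 measured marker of root hairs, had 4.08 to 4.27 in the dark and 4.22 to 4.36 in control and did not clear that quartile (4.12) on every array. FMA, of guard cells, had 4.13 to 4.25 in the dark and 4.22 to 4.23 in control, and markers of xylem, phloem, trichomes and seeds were not analysed here. Fewer cells of a kind and less RNA per cell cannot be told apart in such bulk samples.

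Differences were small for nearly all genes. Over the annotated probe sets the mean change had an SD of 0.16, and 92.7% of them lay within 0.25 of 0. Pairs 1, 2 and 3 had SDs of 0.18, 0.25 and 0.30, so the spread of single differences was widest in pair 3. A mean change of at least 0.5 was seen for 45 annotated probe sets (0.333%) higher and 127 (0.94%) lower in the dark, and one of at least 1 for 13 (0.0962%) and 12 (0.0888%).

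**Figure D1:**
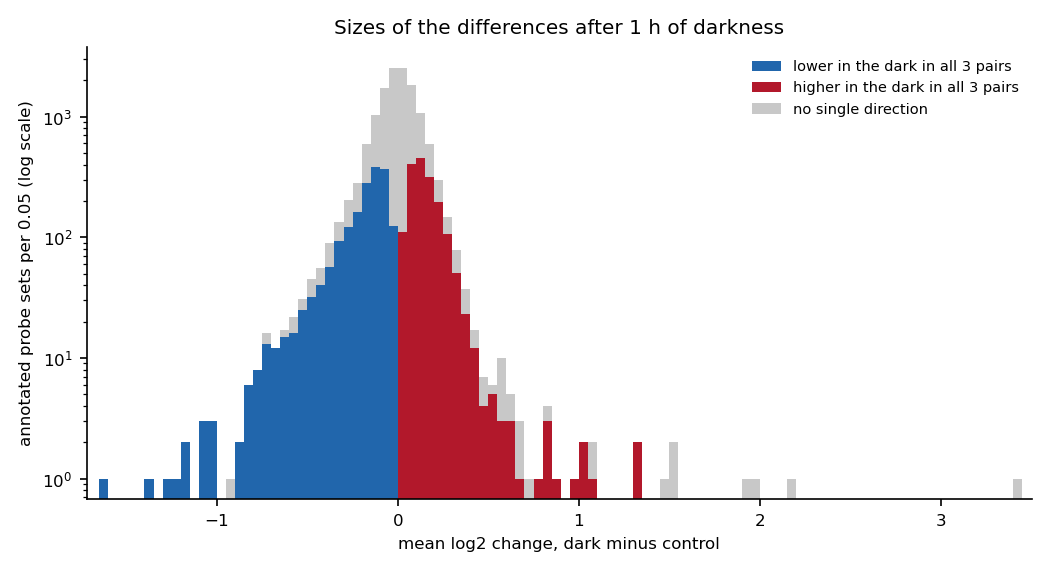
Histogram of the mean log2 change (dark minus control, x axis) of the 13513 annotated probe sets, with the number of probe sets per 0.05 on a log axis. Blue and red mark the 1772 lower and 1702 higher in all 3 pairs, grey those without a single direction; all 12 with a mean of -1 or below are blue, while 8 of the 13 with a mean of 1 or above are grey.

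The same direction in all 3 pairs was found for 1702 annotated probe sets (12.6%) higher and 1772 (13.1%) lower in the dark. Shares of this size are close to what 3 random signs would give, so 1 direction alone does not mark a response to darkness. A further 1387 annotated probe sets had identical values on both arrays of at least 1 pair, which counts as no direction. These counts depend on where 0 lies. When each array was centred on its median, 2411 were higher and 1482 lower, although the median of all probe sets moved only to 0.01 in that setting. Groups that did not overlap, with every dark array above or below every control array, were found for 414 (3.06%) higher and 447 (3.31%) lower. Counting only differences of at least 0.5 in every pair left 6 probe sets (0.0444%) higher and 12 (0.0888%) lower, and at least 1 left 0 (0%) and 0 (0%). Over all 22746 probe sets, at least 1 in every pair left 1 higher (0.0044%) and 1 lower (0.0044%), both without a gene name here.

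The pairs shared little of their pattern. Over all 22746 probe sets the differences of pairs 1 and 2 had a Pearson correlation of 0.24, those of pairs 1 and 3 of 0.18 and those of pairs 2 and 3 of -0.03. These correlations run across probe sets of the same arrays and describe them only. Among the 109 probe sets lower in every pair by a mean of at least 0.5, the largest difference was in pair 2 for 64, in pair 3 for 41 and in pair 1 for 4. Among the 23 that were higher by as much, it was in pair 3 for 16, in pair 2 for 7 and in pair 1 for 0.

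**Figure D2:**
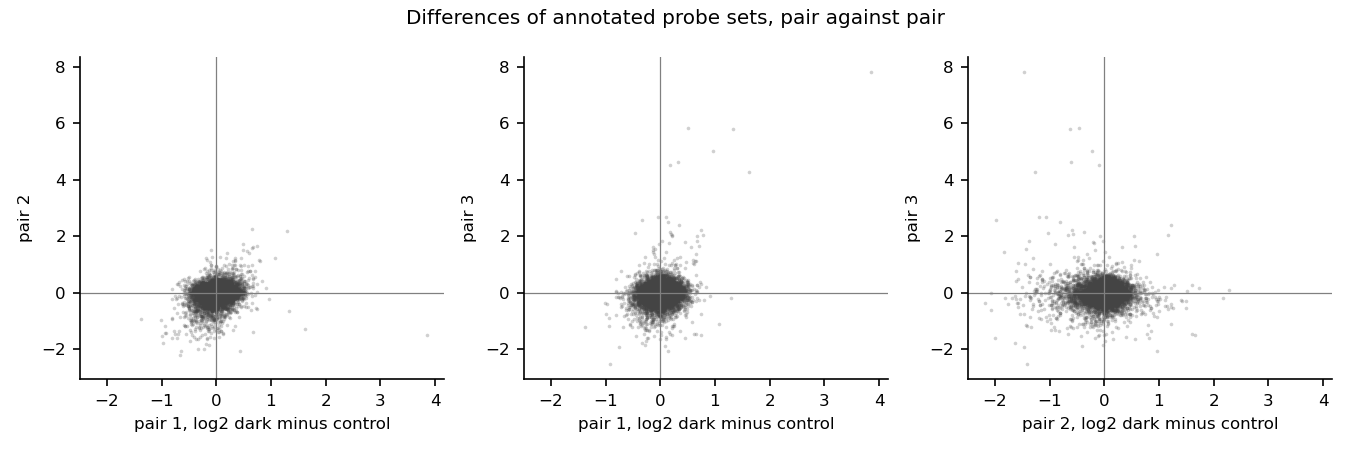
Each point is an annotated probe set, with its log2 difference (dark minus control) in 1 pair on the x axis and in another on the y axis. The clouds are round, and a few points reach 4 to 8 in pair 3 while lying near or below 0 in pair 2.

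Dark replicate 3 stood apart at a small set of genes. AT4G10270 had 7.64, 4.15 and 11.83 in dark replicates 1, 2 and 3, against 3.78, 5.62 and 4.0 in control. Its mean change of 3.40 (SE 1.69) is the highest of all annotated probe sets, and it comes from replicates 1 and 3 with the opposite sign in pair 2. AT3G10040, listed in RefSeq with the synonym HRA1 (hypoxia response attenuator 1), is known as a repressor in the response to low oxygen. It had 5.23, 4.05 and 9.21 in the dark, against 4.26, 4.28 and 4.19 in control. Dark replicate 3 was far above every control array, while the difference was 0.97 in pair 1 and -0.22 in pair 2. AT4G33560 (2.17), AT1G33055 (1.96), AT3G27220 (1.54), AT5G66985 (1.53) and AT3G29970 (1.45) had the same shape in their mean changes, each with a pair 3 difference over 4 and a pair 2 difference below 0. Without replicate 3 the mean changes of these 7 genes, in the order given, were 1.2, 0.37, 0.36, 0.03, 0.18, 0.04 and -0.14. These genes were picked after their values were seen, and for all 7 every high light array was above every control array. Of the 13 annotated probe sets higher by a mean of at least 1, 5 had the same direction in every pair, against all 12 of those lower by as much. A difference of at least 2 was found for 20 annotated probe sets higher in pair 3, for 2 in pair 2 and for 1 in pair 1. Where leaving out 1 pair moved the mean of a gene named with a single direction by over 1.5 times, the value without that pair stands beside it.

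Among nuclear genes of the photosystems, antennae and photosynthetic electron transport, 10 were matched by symbol or synonym. In all 3 pairs 0 were higher and 4 lower (40%), beside 12.7% and 13.1% of all annotated genes. The counts of every list below stand beside these shares. Of the 10 mean changes, 9 were below 0. The median change of the list was -0.16, against -0.0021 over all annotated probe sets, and -0.07 without replicate 3. LHCB4.2, also called CP29, which links the outer antenna to the photosystem II core, had 6.47, 6.11 and 6.59 in the dark, against 7.16, 7.44 and 7.80 in control. The groups did not overlap, and the change was -1.08 (SE 0.14, limma adjusted p = 0.498). The other measured members of its family were nearer to control, with -0.12 for LHCB4.1 and -0.21 for LHCB4.3, neither with a single direction. PSAN, a small subunit of photosystem I on the lumen side, had 8.03, 8.03 and 8.40 in the dark, against 8.49, 8.65 and 8.91 in control. Every dark array was below every control array, by a mean of 0.53 (SE 0.07, limma adjusted p = 0.498). PSBY, a small protein of photosystem II, had 10.69, 10.54 and 10.76 in the dark, against 10.94, 10.85 and 11.19 in control. Its groups did not overlap either, and the change was -0.33 (SE 0.07). ATPC1, the gamma subunit of the chloroplast ATP synthase, was lower in every pair with a mean of -0.19 (SE 0.10), and -0.06 without pair 3.

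For carbon fixation, 4 nuclear genes were measured, all 4 with a mean below 0 and 2 (50%) lower in every pair (median -0.15). PRK, phosphoribulokinase, which makes the acceptor of CO2, had 9.06, 9.25 and 9.54 in the dark, against 9.34, 9.26 and 10.13 in control (change -0.30, SE 0.12, and -0.15 without pair 3). RCA, Rubisco activase, had 10.79, 10.71 and 10.80 in the dark, against 11.10, 11.08 and 10.82 in control (change -0.23, SE 0.10). Both differences were near 0 in 1 pair, pair 2 for PRK and pair 3 for RCA.

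Genes of chlorophyll and carotenoid synthesis numbered 10, with 0 higher and 5 (50%) lower in every pair and a median of -0.25. The medians of pairs 1, 2 and 3 were 0.00, -0.21 and -0.19, so pair 1 did not show it. The median of the mean changes was -0.14 without replicate 2 and also without replicate 3. PORB, a protochlorophyllide oxidoreductase, which needs light for its own reaction, had 7.44, 7.26 and 7.46 in the dark, against 7.79, 7.50 and 7.65 in control. Its dark arrays were all below its control arrays (change -0.26, SE 0.07). CHLM, which methylates magnesium protoporphyrin, had 7.61, 7.05 and 7.38 in the dark, against 7.74, 7.65 and 7.57 in control. Its groups overlapped, and the change was -0.31 (SE 0.11), or -0.16 without pair 2. The other 3 were HEME1 (-0.26) and HEME2 (-0.29), uroporphyrinogen decarboxylases of the common porphyrin path, and LYC (-0.26), a lycopene cyclase. HEME1 had -0.16 without pair 2 and HEME2 -0.11 without pair 3. GSA1, which makes the precursor of chlorophyll and heme from glutamate, had a mean of 0.16 without a single direction.

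The plastid genome contributed 69 genes, of which 59 had a mean below 0. In every pair 22 were lower and 3 higher, that is 31.9% and 4.35%, beside 13.1% and 12.7% of all annotated genes. The median change was -0.13, with -0.18, 0.00 and -0.23 in pairs 1, 2 and 3, so pair 2 did not show it. Without replicate 2 the median was -0.22 and without replicate 3 it was -0.08. Neighbouring plastid genes are often read as 1 long transcript, so these genes do not vary independently. The array's labelling starts from poly(A) tails, which are rare and unstable on plastid RNA, and the part of this in the values was not tested.

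By complex, the plastid genes had the following values. For rbcL, the large subunit of Rubisco, the dark arrays had 10.50, 9.81 and 10.73, against 10.99, 10.33 and 11.19 in control. Its pair differences ran from -0.46 to -0.53, although the levels themselves differed between replicates and the groups overlapped (change -0.49, SE 0.07, limma adjusted p = 0.498). Of 26 genes of the photosystems and the cytochrome b6f complex, 9 were lower and 0 higher in every pair. Their median was -0.13, and -0.22 without replicate 2. The largest of these were psbK (-0.57, SE 0.18) and psbZ (-0.38, SE 0.13) of photosystem II and petN (-0.36, SE 0.12) of cytochrome b6f. The psbK differences were -0.26, -0.35 and -1.11 in pairs 1, 2 and 3, so that its mean was -0.30 without pair 3. For psbZ they were -0.74, -0.21 and -0.19, with a mean of -0.20 without pair 1. All 10 genes of the NDH complex, which feeds electrons back into the plastoquinone pool, had a mean below 0, and 5 were lower in every pair (median -0.23). The medians of pairs 1, 2 and 3 were -0.29, -0.01 and -0.39, so pair 2 hardly showed it. In pair 2 the differences of ndhK and ndhH, counted among the 5, were only -0.02 and -0.01. In that complex ndhJ had 6.58, 7.38 and 8.02 in the dark, against 6.99, 7.62 and 8.42 in control. Its pair differences lay close together although the groups overlapped (change -0.35, SE 0.08). Of 6 ATP synthase genes, 3 were lower (atpA, atpF and atpH) and 1 higher (atpE, 0.08, or 0.01 without pair 1). Without pair 3 the means of atpA and atpH were each -0.16, against -0.26 and -0.29 with all pairs, and that of atpF -0.08, against -0.28. Of 15 ribosomal protein genes 3 were lower and 2 higher (rpl14 and rpl16). Their median was -0.09, with -0.18 without replicate 2 and -0.01 without replicate 3, and rpl14 had 0.17, or 0.03 without pair 3. None of the 4 genes of the plastid's own RNA polymerase had a single direction. Of 16 genes of the mitochondrial genome 1 was lower and 0 higher in every pair (median -0.10, with 0.20 in pair 2, and -0.02 without replicate 3).

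The circadian clock list had 3 measured genes, all lower in every pair, beside 13.1% of all annotated genes. GI (GIGANTEA), which ties the clock to flowering and light input, had 7.02, 6.95 and 7.45 in the dark, against 7.60, 7.77 and 7.59 in control. No dark array reached the lowest control array, and the change was -0.51 (SE 0.14, limma adjusted p = 0.754). TIC, a clock regulator, had -0.17 (SE 0.07) and COR27, a cold and clock regulated gene, -0.10 (SE 0.07). COR27 was below the median level of all probe sets, with means of 5.31 in the dark and 5.40 in control. Its difference in pair 3 was only -0.003, so the count of 3 rests on a value near 0. The 2 measured genes of light signalling, FHL and HYH, each had a mean change of -0.04 without a single direction. HYH was at low signal, with means of 3.74 in the dark and 3.78 in control, so its lack of change says little. Other genes of photoreceptors and of the phytochrome-interacting factors were not analysed here.

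**Figure D3:**
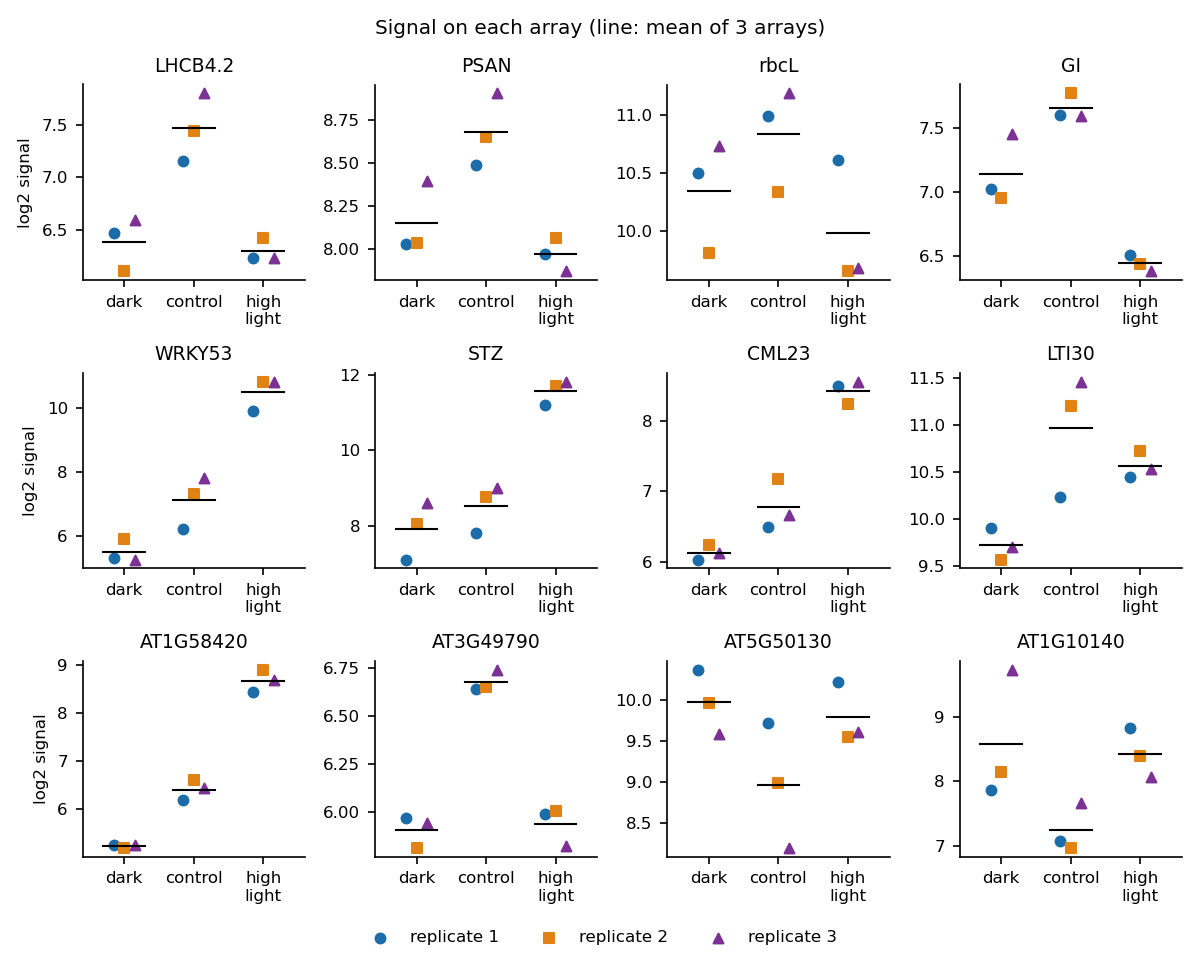
Log2 signal on each array for 12 genes, with dark left, control in the middle and high light right; symbols mark replicates 1 to 3 and the line is the mean of 3 arrays. LHCB4.2, PSAN, GI and AT3G49790 are lower in the dark and in high light than in control, while WRKY53, STZ, CML23 and AT1G58420 are lowest in the dark and highest in high light.

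Some of the largest differences among genes with a symbol were in genes known for fast responses to stress. WRKY53 had 5.33, 5.92 and 5.28 in the dark, against 6.24, 7.33 and 7.82 in control. Every dark array was below every control array, the pair differences ran from -0.92 to -2.53, and the mean change was -1.62 (SE 0.31, limma adjusted p = 0.586). The other 6 measured WRKY factors showed no single direction, and the median of the 7 was 0.01. Of the 7, 4 reached the median level of all probe sets. STZ, a zinc finger repressor also called ZAT10, had 7.10, 8.05 and 8.60 in the dark, against 7.81, 8.76 and 9.0 in control (change -0.61, SE 0.10). The groups overlapped because replicate 1 was lowest and replicate 3 highest in both, while each pair differed in the same direction. CML23, a calmodulin-like protein, had 6.03, 6.23 and 6.13 in the dark, against 6.49, 7.18 and 6.66 in control. Its groups did not overlap (change -0.65, SE 0.12). The 28 calcium signalling genes as a whole had 5 higher (17.9%) and 3 lower (10.7%) in every pair and a median of 0.01. These shares were not far from the 12.7% and 13.1% of all annotated genes. Only 9 of the 28 reached the median level of all probe sets. In high light these 3 genes were well above control, with means of 10.51 for WRKY53, 11.58 for STZ and 8.42 for CML23. High light and dark were set against the same control arrays, so these values are not independent of the dark differences.

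Receptor-like kinases and proteins numbered 9, with 4 lower (44.4%) and 0 higher in every pair, beside 13.1% and 12.7% of all annotated genes. Their median was -0.20, with -0.06, -0.09 and -0.26 in pairs 1, 2 and 3, so the difference was largest in pair 3. PSY1R, the receptor of a tyrosine-sulfated growth peptide, had 6.25, 5.87 and 5.96 in the dark, against 6.80, 6.27 and 7.07 in control. Its dark arrays were all below its control arrays, and the change was -0.69 (SE 0.15). BIK1, a cytoplasmic kinase that acts with immune receptors, had a mean change of -0.45 (SE 0.16), or -0.24 without pair 3, and FER (FERONIA), a receptor kinase of growth and immunity, had -0.24 (SE 0.08). SAG101, a partner of the immune regulator EDS1, had 5.66, 5.82 and 6.29 in the dark, against 6.07, 6.48 and 6.61 in control (change -0.47, SE 0.09). Of 16 genes of U-box and RING ubiquitin ligases 3 were lower and 0 higher in every pair. They were PUB26 (-0.32), ATL5 (-0.22) and PUB24 (-0.21), all at low signal. Of the 16 salicylate and defence genes 3 were lower and 1 higher. The lower share was 18.8% in both lists, not far from the 13.1% of all annotated genes.

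The abscisate and cold list held 13 genes, with 5 (38.5%) lower and 0 higher in every pair. Its median was -0.08, or -0.05 without replicate 3. The dehydrin LTI30, a protective protein of cold and drought, had 9.91, 9.57 and 9.70 in the dark, against 10.23, 11.21 and 11.46 in control. No array overlapped, and the change was -1.24 (SE 0.30), with a difference in pair 1 of only -0.33. COR47, another dehydrin, had 8.08, 8.77 and 9.58 in the dark, against 8.30, 9.92 and 10.18 in control (change -0.66, SE 0.18, and -0.41 without pair 2). The other 3, COR27 among them, were below the median level and differed by 0.10 or less.

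Metabolic genes came next. Of 52 UGT glycosyltransferases, which attach sugars to small molecules, 15 were lower (28.8%) and 1 higher (1.92%) in every pair (median -0.06). Only 12 of the 52 reached the median level of all probe sets, and the larger differences were in UGT88A1 (-0.80, SE 0.24) and UGT85A2 (-0.69, SE 0.19). UGT88A1 differed by -0.44, -0.43 and -1.54 in pairs 1, 2 and 3, and its mean was -0.44 without pair 3. The mean of UGT85A2 was -0.43 without pair 2. Of 86 cell wall genes 18 were lower and 9 higher, that is 20.9% and 10.5%, beside 13.1% and 12.7% of all annotated genes. ATPMEPCRB, a pectin methylesterase, had 6.29, 6.78 and 6.17 in the dark, against 6.72, 7.66 and 7.04 in control (change -0.73, SE 0.11). Its groups overlapped through dark replicate 2. Of 6 lipid genes 4 were lower (66.7%) and 0 higher, but only 2 of the 6 reached the median level of all probe sets. SDP1, a lipase of stored oil, had -0.37 (SE 0.08) and FATB, which releases saturated fatty acids for export from the plastid, -0.21 (SE 0.07).

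The matched genes of carbon and energy supply differed little at 1 h. The list of dark response, sugar starvation and autophagy held 13 genes, most of them of the ATG8 autophagy family. It says little about dark or starvation responses in general. In every pair 1 was higher (7.69%) and 3 were lower (23.1%), with a median of -0.02. The 3 were BCAT4 (-0.60), an aminotransferase of methionine chain elongation, ATG8E (-0.50), an autophagosome protein, and AKINBETA1 (-0.40), a subunit of the SnRK1 energy-sensing kinase. ATG8E had 9.04, 9.06 and 8.98 in the dark, against 9.14, 9.29 and 10.14 in control, so most of its difference came from control replicate 3, and its mean was -0.16 without pair 3. AKINBETA1 had the same shape, with 6.08, 5.99 and 6.08 in the dark and 6.11, 6.11 and 7.15 in control, and a mean of -0.07 without pair 3. The mean of BCAT4 was -0.30 without pair 2. APG8H, another autophagosome protein, was higher by 0.11 (SE 0.07). Of 32 genes of glycolysis, respiration and fermentation 6 were higher (18.8%) and 4 lower (12.5%). Of 30 genes of sugar and starch metabolism 4 were higher (13.3%) and 3 lower (10%). These shares were not far from the 12.7% and 13.1% of all annotated genes. Both medians were -0.01. Of 15 genes of nitrogen and amino acid metabolism and of 13 phenylpropanoid genes, 0 had a single direction.

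**Figure D4:**
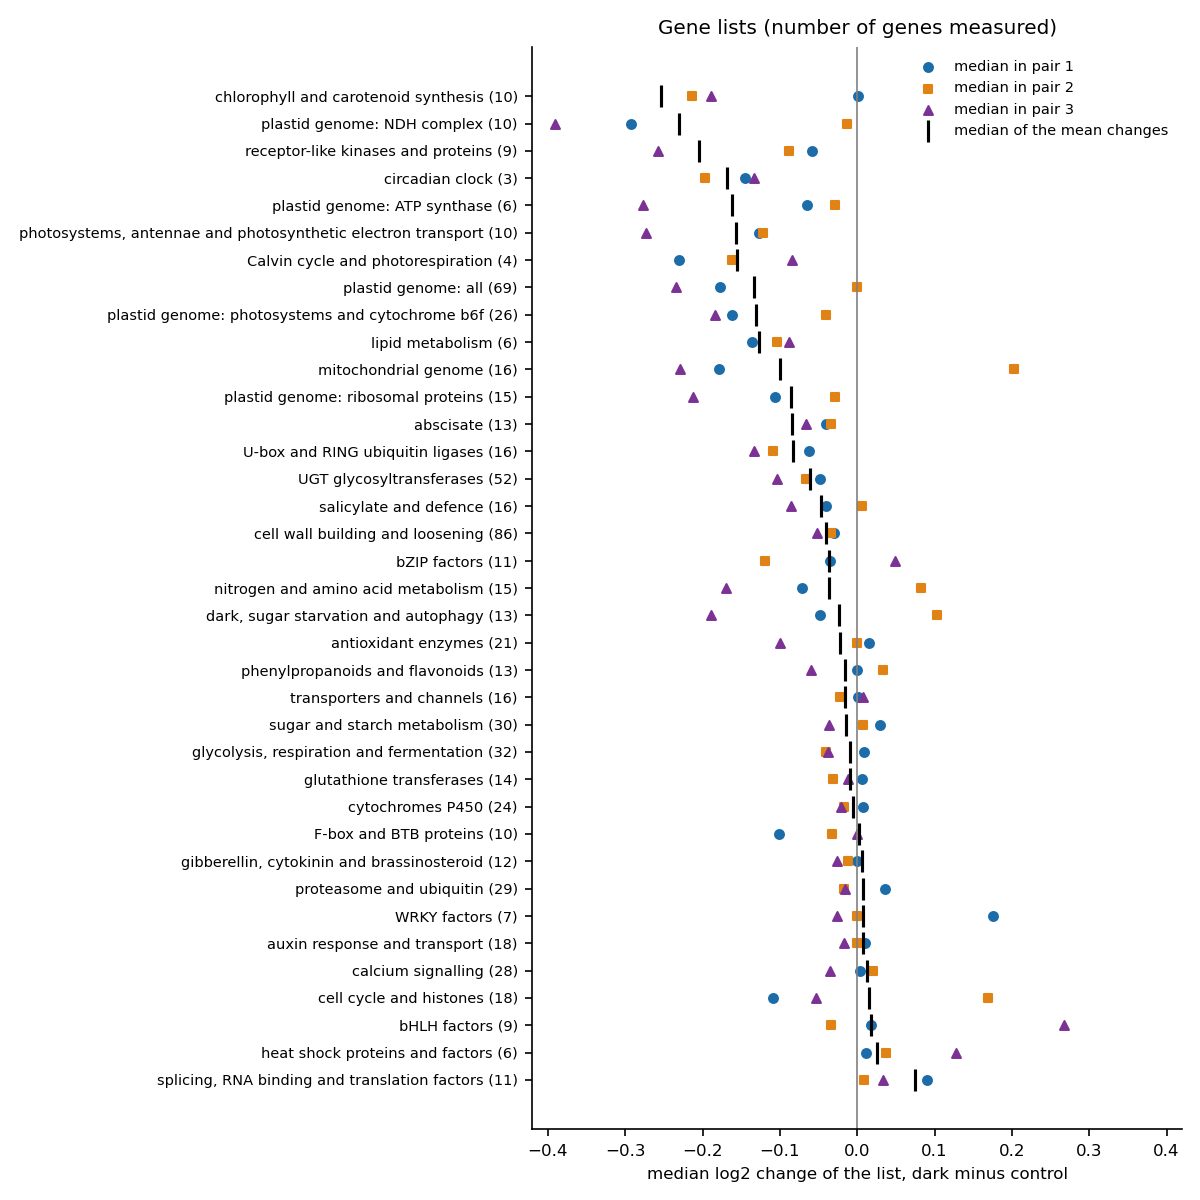
Median log2 change (dark minus control, x axis) of each gene list with at least 6 measured genes, and of the Calvin cycle and clock lists, with the number of genes in brackets. Symbols show the median in each pair and the black mark the median of the mean changes; pigment synthesis, the NDH complex and receptor-like kinases are lowest, and splicing factors highest at 0.07.

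A few lists had more genes higher than lower. Of 11 genes of splicing, RNA binding and translation 5 were higher (45.5%) and 0 lower in every pair, with a median of 0.07. Of all annotated genes, 12.7% were higher in every pair. U2AF35B, a splicing factor that reads the 3 prime splice site, had 7.05, 7.06 and 7.05 in the dark, against 6.84, 7.04 and 6.59 in control (change 0.23, SE 0.11, and 0.12 without pair 3). EIF4A-2, a translation initiation helicase, had 0.12 (SE 0.07). Of 6 heat shock genes 3 were higher (50%), by 0.20 or less, and 0 lower. The other 3 had a mean below 0, and the median was 0.03. Each of the 3 higher genes (ATERDJ3B, ATJ1 and ATHSP22.0) had a difference of 0.03 or less in at least 1 pair. Of 9 measured bHLH genes 1 was higher in every pair (11.1%) and 0 lower, with a median of 0.02. That gene, PYE (POPEYE), a factor of the iron deficiency response, was below the median level of all probe sets in both groups (means 5.55 and 4.92). PYE had 5.67, 5.33 and 5.64 in the dark, against 5.08, 5.11 and 4.58 in control. Every dark array was above every control array, and the change was 0.62 (SE 0.17, limma adjusted p = 0.751), or 0.41 without pair 3. OSM34, an osmotin-like protein, had 9.30, 8.73 and 8.83 in the dark, against 8.63, 8.23 and 8.55 in control. Its groups did not overlap either (change 0.48, SE 0.10). AER, a reductase of reactive carbonyls, had 9.15, 9.56 and 9.38 in the dark, against 8.52, 8.77 and 9.24 in control (change 0.52, SE 0.14), with some overlap.

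The genes with the largest difference in their weakest pair were then taken in each direction, 15 lower and 15 higher, among annotated probe sets whose higher group mean was at or above the median level of all probe sets (5.64). The size and direction of these differences are what chose them and are given as a description. The dark means of 3 of the 15 lower genes were under that level (WRKY53 5.51, AT1G58420 5.23 and AT5G07080 4.89), as was the control mean of 1 of the 15 higher genes (AT4G39720, 5.54), so these 4 passed only through the group where they were high. Of the 15 lower in the dark, 12 did not overlap between the groups, beside 3.31% of all annotated probe sets. Large differences in every pair make that likely, so the count follows largely from the choice. The mean changes of the 15 ran from -0.53 to -1.62, with limma adjusted p from 0.266 to 0.586. Besides WRKY53 and LHCB4.2 all of them are named here by their locus. AT1G58420 had 5.25, 5.20 and 5.24 in the dark, against 6.19, 6.61 and 6.43 in control. The dark arrays were almost equal and far below control, with the largest weakest difference of the 15 (change -1.18, SE 0.11, limma adjusted p = 0.266). AT3G10930 had 6.60, 7.41 and 6.94 in the dark, against 7.97, 8.34 and 8.16 in control (change -1.17, SE 0.11). AT1G70740 had 5.75, 5.85 and 5.68 in the dark, against 6.68, 7.04 and 6.58 in control (change -1.01, SE 0.09). Both kept the groups apart.

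AT1G69570 had 6.08, 5.80 and 6.25 in the dark, against 6.89, 6.73 and 7.03 in control (change -0.84, SE 0.07). AT5G43520 had 9.03, 9.15 and 9.19 in the dark, against 9.78, 10.61 and 11.12 in control (change -1.38, SE 0.23). AT5G07080 had 4.70, 4.89 and 5.09 in the dark, against 5.69, 6.43 and 5.84 in control (change -1.10, SE 0.16). The groups of these 3 genes did not overlap, and AT5G43520 had the widest spread in control. AT3G49790 had 5.97, 5.81 and 5.94 in the dark, against 6.64, 6.65 and 6.74 in control (change -0.77, SE 0.07). AT3G56880 had 9.80, 9.75 and 9.75 in the dark, against 10.35, 11.19 and 10.88 in control (change -1.04, SE 0.18). For both, the dark arrays lay closer together than their distance to control. The other 5 were AT3G29240 (-0.69), AT5G24490 (-0.89), AT1G69080 (-0.53), AT1G10340 (-0.68) and AT2G47550 (-0.61).

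**Figure D5:**
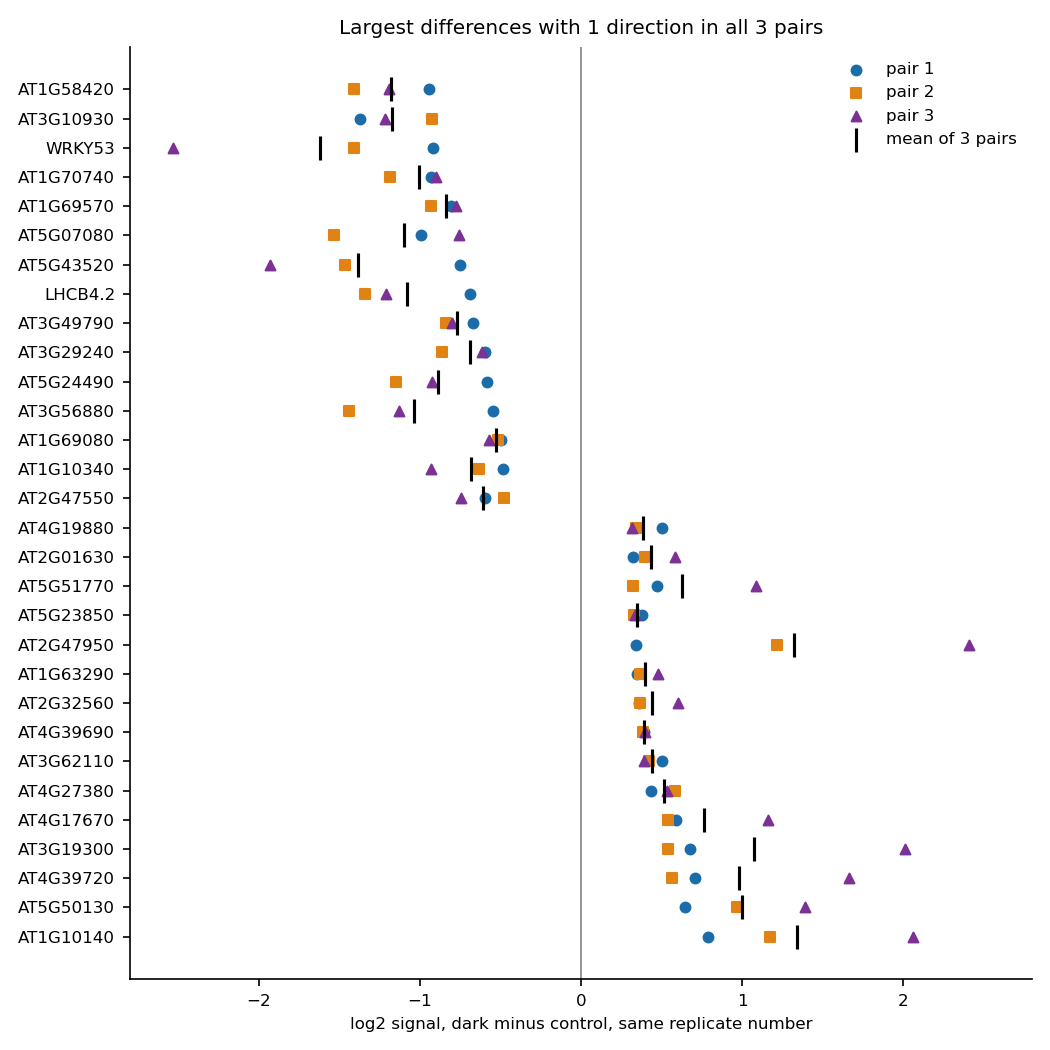
Log2 difference (dark minus control, x axis) in each pair for the 15 lower and 15 higher genes, with 1 symbol per pair and a black mark for the mean. The lower genes start at -0.94 in their weakest pair (AT1G58420) and the higher ones at 0.79 (AT1G10140), and pair 3 lies far out for WRKY53, AT2G47950, AT1G10140 and AT3G19300.

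The 15 higher in the dark had smaller differences. Their mean changes ran from 0.35 to 1.34 with limma adjusted p from 0.498 to 0.762. Of the 15, 8 did not overlap between the groups, beside 3.06% of all annotated probe sets. AT1G10140 had 7.86, 8.14 and 9.73 in the dark, against 7.07, 6.97 and 7.67 in control. All dark arrays were above all control arrays, with replicate 3 the farthest (change 1.34, SE 0.25, and 0.98 over pairs 1 and 2). AT5G50130 had 10.36, 9.96 and 9.59 in the dark, against 9.72, 8.99 and 8.20 in control. Its groups overlapped, with replicate 1 highest and replicate 3 lowest in both, and each pair differed in the same direction (change 1.00, SE 0.15). AT4G39720 had 6.15, 6.14 and 7.27 in the dark, against 5.44, 5.57 and 5.61 in control (change 0.98, SE 0.23, and 0.64 without pair 3). AT3G19300 had 6.50, 6.41 and 7.37 in the dark, against 5.82, 5.87 and 5.36 in control (change 1.08, SE 0.30, and 0.61 without pair 3). Neither overlapped, and in both dark replicate 3 was the highest. AT4G27380 had a similar difference in each pair, with 8.23, 8.40 and 8.16 in the dark, against 7.79, 7.81 and 7.63 in control (change 0.52, SE 0.07, limma adjusted p = 0.498).

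AT2G47950 had 7.03, 8.13 and 9.48 in the dark, against 6.69, 6.91 and 7.07 in control (change 1.32, SE 0.38, and 0.78 over pairs 1 and 2). Its groups overlapped through dark replicate 1. The other 9 were AT4G17670 (0.76), AT3G62110 (0.44), AT4G39690 (0.39), AT2G32560 (0.44), AT1G63290 (0.40), AT5G23850 (0.35), AT5G51770 (0.63, or 0.40 without pair 3), AT2G01630 (0.44) and AT4G19880 (0.39). AT3G27880 was below the median level but had 1 of the 4 smallest unadjusted p among higher genes. It had 5.27, 5.10 and 5.65 in the dark, against 4.62, 4.46 and 4.54 in control (change 0.80, SE 0.12, limma adjusted p = 0.513), with no overlap.

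High light values of the same genes stood on both sides of control. Of the 15 genes lower in the dark, 4 had all high light arrays above all control arrays (AT1G58420, AT3G10930, WRKY53 and AT1G70740). Another 6 had all high light arrays below all control arrays (AT1G69570, LHCB4.2, AT3G49790, AT3G29240, AT5G24490 and AT1G69080), and 5 overlapped. AT1G58420 had 8.45, 8.91 and 8.69 in high light and LHCB4.2 had 6.23, 6.42 and 6.23. Of the 15 genes higher in the dark, 6 had all high light arrays above all control arrays, 0 below, and 9 overlapped. The control arrays are shared by both comparisons, so agreement or contrast between them is given here as values only.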

How the data were processed

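The deposited values are one series table of 9 arrays, holding log2 values that the authors made with RMA (affy), per the submitters' processing notes, which name no version or settings. The sources used here do not give the log base, which was taken from the range of the values. RMA equalises the arrays' distributions, so a change of most transcripts in 1 direction would not show, and it compresses low values. Each gene was represented by its probe set with the highest mean over the 6 arrays.

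Dark and control arrays were fitted with limma 3.58.1 in R 4.3.3 (lmFit and eBayes) on 22746 probe sets with the replicate number as a block, 2 residual and 3.06 prior degrees of freedom, and Benjamini-Hochberg adjustment over all of them. The number of arrays limits the precision. Dark and control arrays of the same number deviated from their group means with correlations of 0.63, 0.01 and 0.43, so the numbers were not shown to pair every array.

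The members and the gene lists were chosen with earlier results of these data known, and list rules on gene symbols were trimmed of wrong matches after the gene table was seen. Named genes are the 15 in each direction with the largest weakest pair difference, where the higher of the dark and control means is at or above the median level (5.64), those with the 4 smallest p in each direction, and up to 3 members of each list. Others with a symbol (OSM34, AER) and genes at a mean change of at least 1 were picked after their values were seen. Gene names came from the platform annotation, of which 13436 of 13513 probe sets with 1 gene matched RefSeq, and another 503 list several genes and 8730 none. Sequences and promoter motifs were not analysed here. Alternatives covered the block, the arrays fitted, centring, normalisation, filters, the prior, array weights, shared probes and each pair left out.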

Additional observations from a re-analysis of the deposited data

How the results depend on the processing

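The count of 0 probe sets called held in every alternative but 1, the intensity trend with a robust prior, which called 3. The replicate block decided how many probe sets had an unadjusted p under 0.05: without the block 217 were higher and 398 lower with the 6 arrays, and 226 and 403 with all 9. A filter at the median of means left 290 higher and 539 lower. It also removed the probe sets below that median from the test, so these counts cannot be set directly against those of all probe sets. Leaving out 1 pair gave 317 to 686 higher and 678 to 875 lower, and the lowest counts came without replicate 1. Annotated probe sets with 1 direction in every pair numbered 945 higher and 854 lower after that filter, again out of fewer probe sets. With 1 pair left out they numbered 3082 to 3421 higher and 3213 to 3394 lower, since 2 pairs agree more easily than 3. With all 3 pairs and no filter they numbered 6 higher and 12 lower at differences of at least 0.5, and 0 and 0 at 1. Of 1603 values of 127 named or listed genes under the alternatives, 1602 kept their direction and 0 passed the threshold. The exception was SCPL45, with -0.0077 to 0.18 when 1 pair was left out (the lowest without replicate 1) and 0.11 with all. For genes chosen with 1 sign in all 3 pairs, leaving out a pair cannot reverse the mean. The block, the filters and the prior leave each mean change the same, so this agreement was largely fixed in advance. Of 573 list medians, 34 moved by more than 1 SD over the pairs. Of 41 lists, 31 had a median below that of all probe sets, and 28 to 33 with 1 pair left out. The lists are not independent, since the plastid list contains those of its complexes and COR27 is in both the clock and abscisate lists. Some medians were also close to that of all probe sets (-0.0040), such as -0.0053 for cytochromes P450. The causes were not tested, and signal over background was not assessed.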

Other observations

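The probe sets with the smallest p were not annotated with a gene, and they were picked after their values were seen. Probe set 257654_at had 7.81, 8.34 and 9.02 in the dark, against 5.09, 4.66 and 4.63 in control, a change of 3.60 (SE 0.31, limma adjusted p = 0.266). It was the 1 probe set of the array with a difference of at least 1 higher in every pair, and its high light arrays had 9.14, 7.85 and 7.15. Probe set 252429_at had 6.16, 6.0 and 7.01 in the dark, against 7.94, 8.12 and 8.65 in control (change -1.85, SE 0.11, limma adjusted p = 0.194), and it was the 1 with a difference of at least 1 lower in every pair. Probe set 267002_s_at, whose suffix marks probes shared by several transcripts, had 9.86, 9.56 and 10.10 in the dark, against 10.83, 10.68 and 11.18 in control (change -1.06, SE 0.07, limma adjusted p = 0.194). Both lower probe sets and 252430_at were the 3 called with an intensity trend and a robust prior, each at an adjusted p of 0.0296.

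Several other genes with a symbol were lower in every pair. GAT1_2.1, a glutamine amidotransferase, had 6.70, 5.20 and 5.06 in the dark, against 7.15, 6.21 and 5.85 in control (change -0.75, SE 0.12). KELP, a transcriptional coactivator, had a mean change of -0.71 (SE 0.16). The mean changes were -0.51 (SE 0.11) for TET8, a tetraspanin of secreted vesicles, and -0.51 (SE 0.11) for CaS, a calcium sensor of the chloroplast thylakoid.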
